A study of Mus musculus with 6 samples.

Results

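The releasing hormone genes *Trh*, *Crh* and *Ghrh* were examined in the hypothalamus of *Fmr1* KO and WT females. They were chosen by name and are 3 of the 787 probes in the deposited count table, and the probe of each was present. The level of *Trh* in *Fmr1* KO over WT hypothalami was 1.27-fold with a 95% interval of 1.10 to 1.46, a difference that did not pass the threshold adjusted over all tested probes. *Crh* and *Ghrh* values overlapped between the genotypes.

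These genes encode peptides that hypothalamic neurons release into the portal vessels of the median eminence, from which they reach the anterior pituitary. Thyrotropin-releasing hormone, the product of *Trh*, drives thyroid-stimulating hormone and also prolactin secretion. Corticotropin-releasing hormone, the product of *Crh*, drives ACTH and through it the adrenal glucocorticoids, while growth hormone-releasing hormone, the product of *Ghrh*, drives growth hormone. The hypophysiotropic *Trh* and *Crh* neurons lie mainly in the paraventricular nucleus and the *Ghrh* neurons in the arcuate nucleus. *Trh* is also made in other hypothalamic areas, and *Crh* is also made outside the hypothalamus, for instance in cortical interneurons.

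The samples were 3 WT and 3 *Fmr1* KO mice, all females of 8 weeks of age in diestrus, and for each mouse 50 ng of RNA from hypothalamus, dissected out of coronal sections of 500 μm, was loaded on a lane of its own. The KO is a germline knockout on the FVB background, in which all cells carry the mutation, and the WT mice were its congenic FVB controls. RNA was counted with the nCounter assay, in which colour-coded probes bind the transcript and are counted without amplification. The WT group filled the first lanes and the KO group the last, so effects of lane and of genotype cannot be told apart.

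Total counts were 165514 to 339934 per lane, and the factor by which the authors scaled a lane was 0.767 to 1.13 in 5 lanes and 1.72 in *Fmr1* KO replicate 2, whose total was the lowest. Normalized counts below are raw counts times this factor, and every log2 fold change has *Fmr1* KO as its numerator. Raw counts were tested with edgeR over the 601 probes with a count above 20 in at least 3 lanes, and all 3 releasing hormone probes passed this minimum. The markers of the dissected tissue were present in every lane, with raw counts of 220 to 1229 for the orexin gene *Hcrt*, 1913 to 6785 for the oxytocin gene *Oxt* and 104 to 193 for the agouti-related peptide gene *Agrp*. *Fmr1* itself was not analysed here, so genotype was taken from the labels. Levels of different probes were not compared, since each probe binds with its own efficiency.

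*Trh* was read by a probe whose target starts at base 880 of its RefSeq transcript. In the order of the replicate numbers, the WT mice gave raw counts of 924, 833 and 911 and the KO mice gave 1515, 529 and 1010. The lowest and the highest raw count were thus both from *Fmr1* KO mice, and the lowest was in the lane with the lowest total. After scaling, the WT mice had *Trh* levels of 867, 830.2 and 839.8 normalized counts and the KO mice of 1161, 908 and 1137. WT mice lay close together, *Fmr1* KO replicates 1 and 3 stood well above them, and replicate 2 was nearer to WT than to the other KO mice. Group means were 846 ± 18.9 for WT and 1069 ± 139.9 for KO mice (± SD over 3 mice). The coefficient of variation was 2.24% among WT mice, below the mean counting error of 3.36% for this probe, and 13.1% among *Fmr1* KO mice.

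**Figure D1:**
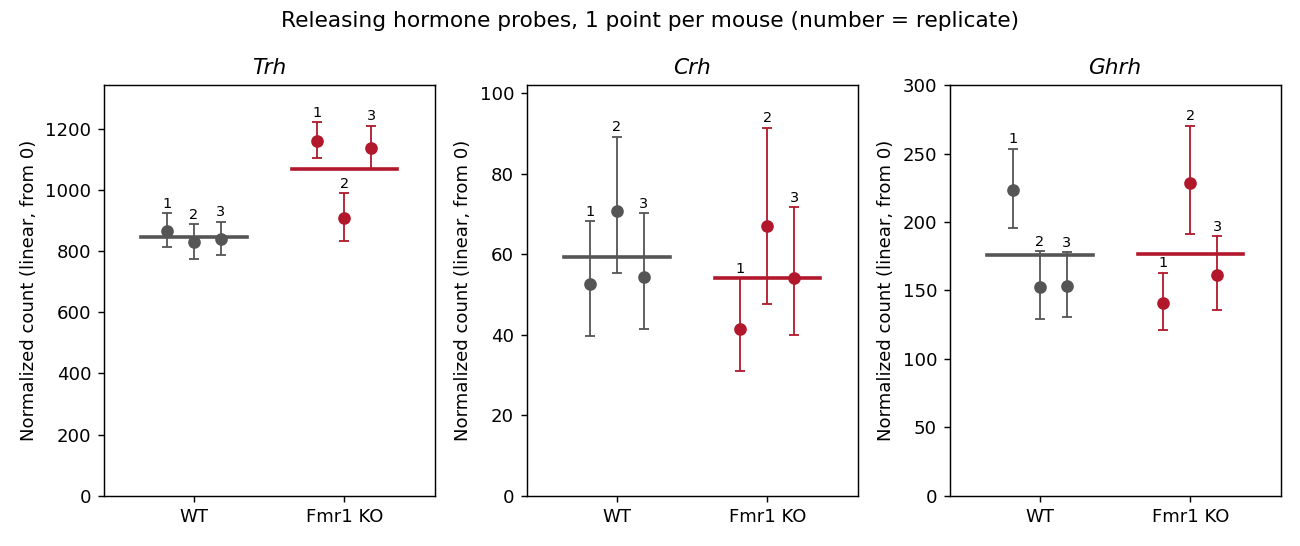
Normalized counts of *Trh*, *Crh* and *Ghrh* in each mouse (vertical axis, linear from 0), with WT in grey and *Fmr1* KO in red. Numbers are replicates, error bars are exact Poisson 95% intervals of the count scaled by the lane factor, and horizontal lines are group means. For *Trh* the KO mice lie at 908 to 1161 and the WT mice at 830.2 to 867, whereas the groups overlap for *Crh* and *Ghrh*.

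The log2 fold change of *Trh* came to 0.34 ± 0.09 (SE), with a p from edgeR of 0.00331 before and 0.166 after adjustment. By p-value, 11 of the 601 tested probes came before *Trh*. At the adjusted threshold of 0.05, 3 probes, or 0.499% of those tested, were higher in *Fmr1* KO mice, and *Trh* was not among them. At an unadjusted p under 0.05, 34 probes, or 5.66%, were higher, and *Trh* was one of these. All *Fmr1* KO mice were above all WT mice for *Trh*, which was also the case for 6.82% of tested probes. An exact permutation test of log2 normalized *Trh* counts gave a two-sided p of 0.1, the smallest that 3 mice against 3 can give. *Trh* was among the genes that the study plotted from these same samples, so its direction is not independent evidence.

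The separation of the *Trh* values depended on the scaling of *Fmr1* KO replicate 2. With lanes scaled by TMM factors, by median-ratio size factors or by total count, 2 of the 3 *Fmr1* KO mice were above all WT mice, and replicate 2 lay within the WT range. The ratio of group means was 1.26 with the authors' factors and 1.22 to 1.26 with these scalings. Without *Fmr1* KO replicate 2, *Trh* passed the adjusted threshold, with a log2 fold change of 0.44 and an adjusted p of 0.0108 from edgeR, in a fit that called 10 probes, or 1.66% of those tested, of which 7, or 1.16%, were higher. With any other mouse left out, the adjusted p of *Trh* from edgeR was between 0.188 and 0.589.

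*Crh* was the lowest of the 3 probes in counts and thus the least precise, with a target that starts at base 1045 of its RefSeq transcript. The WT mice gave raw counts of 56, 71 and 59, again by replicate number, and the KO mice gave 54, 39 and 48. Scaled, these were 52.5, 70.8 and 54.4 normalized counts for WT and 41.4, 66.9 and 54.05 for KO mice. In raw counts every *Fmr1* KO mouse was below every WT mouse, but raw counts also follow the lane totals. Totals of *Fmr1* KO replicates 2 and 3, 165514 and 256258, were below those of all WT lanes, while that of replicate 1, 339934, was the highest. The share of all probes with such raw counts is not given here. After scaling the groups overlapped, with only *Fmr1* KO replicate 1 below all WT mice.

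The *Crh* group means were 59.2 ± 10.03 normalized counts for WT and 54.1 ± 12.8 for KO mice (± SD over 3 mice). On the log2 scale the difference was -0.18 ± 0.22 (SE), with an adjusted p of 0.907 from edgeR and a 95% interval for the fold of 0.631 to 1.24. The counting error of a single lane was 11.9% to 16.0%. Background bears most on this probe. The 79 lowest probes averaged 15.8 normalized counts in *Fmr1* KO replicate 2, against 6.63 to 7.85 in the other lanes, and with their mean subtracted the log2 fold change of *Crh* was -0.26 (adjusted p = 0.797 from edgeR). The difference changed sign without *Fmr1* KO replicate 1, the mouse with the lowest value, where the log2 fold change was 0.012, and it was -0.031 without WT replicate 2, the mouse with the highest.

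*Ghrh* had a target that starts at base 183 of its RefSeq transcript. Raw counts by replicate number were 238, 153 and 166 for the WT mice and 184, 133 and 143 for the KO mice. Scaled, the WT mice stood at 223, 152 and 153 and the KO mice at 141, 228 and 161 normalized counts. In each group 1 mouse stood above the others, WT replicate 1 and *Fmr1* KO replicate 2, and the remaining 4 mice lay between 141 and 161.

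The *Ghrh* group means were 176 ± 40.7 normalized counts for WT and 177 ± 45.7 for KO mice (± SD over 3 mice). On the log2 scale the difference was -0.030 ± 0.20 (SE), with an adjusted p of 0.9897 from edgeR, and the 95% interval for the fold was 0.722 to 1.33. The coefficient of variation was 23.1% among WT and 25.9% among *Fmr1* KO mice, against a mean counting error of 7.79%, so counting error covered a small part of the spread. Since variation depends on the count, each gene was set beside tested probes with a mean raw count within 1.5-fold of its own. Pooled over both genotypes as a root mean square, the coefficient of variation of *Ghrh* was 24.5%, against a median of 11.3% over 126 such probes. It was 20.5% for *Crh* against 17.7% over 116 probes, and 9.39% for *Trh* against 6.47% over 56 probes. The direction of the *Ghrh* difference was set by single mice. Its log2 fold change was 0.18 when WT replicate 1 was left out. With KO replicate 1, 2 or 3 left out it was 0.12, -0.23 or 0.021.

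*Gnrh1*, encoding the releasing hormone of the gonadotropins, was the remaining releasing hormone gene on the panel. The WT mice had 46.9, 47.8 and 38.7 normalized counts and the KO mice 80.5, 66.9 and 91.2, a difference of 0.86 ± 0.18 (SE) on the log2 scale with an adjusted p of 0.0735 from edgeR. Of the 4 releasing hormone genes, none passed the adjusted threshold, against 0.832% of all tested probes in both directions together. *Trh* and *Gnrh1* were higher at an unadjusted p under 0.05, as were 5.66% of all tested probes. The median log2 fold change of the 4 genes was 0.16, and that of all tested probes was 0.0085.

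The 300 bases around a start site of *Trh* and *Ghrh* are shown because *Trh* was the gene whose groups separated and *Ghrh* the gene whose means nearly coincided. The windows run from 250 bases before to 50 bases after the start site and are from RefSeq, build GRCm38.p6. Of the 3 genes, 2 were matched in this table, *Trh* with 1 window and *Ghrh* with 2. Capitals mark TGACCTCA and TATAAG in *Trh* and TATAAA in *Ghrh*. The *Trh* window is chr6:92244601-92244900 and the *Ghrh* window that holds TATAAA is chr2:157337377-157337676, both on the minus strand and written 5′ to 3′.
Trh: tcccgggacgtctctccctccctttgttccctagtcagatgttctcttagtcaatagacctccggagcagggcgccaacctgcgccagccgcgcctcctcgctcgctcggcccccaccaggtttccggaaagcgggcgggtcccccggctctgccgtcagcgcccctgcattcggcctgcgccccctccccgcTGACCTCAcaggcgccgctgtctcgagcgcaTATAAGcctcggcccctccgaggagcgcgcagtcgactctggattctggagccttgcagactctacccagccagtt
Ghrh: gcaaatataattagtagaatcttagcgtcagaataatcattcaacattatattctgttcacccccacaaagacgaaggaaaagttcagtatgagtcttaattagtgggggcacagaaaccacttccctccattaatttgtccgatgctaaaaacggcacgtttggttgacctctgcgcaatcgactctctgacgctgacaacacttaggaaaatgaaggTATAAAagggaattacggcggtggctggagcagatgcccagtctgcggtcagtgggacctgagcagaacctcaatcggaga

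Motifs were searched on both strands, none overlapped another, and a match is a description of the letters. The cAMP response element TGACGTCA, bound by CREB, was in neither gene's windows and in 1.79% of the 32851 windows of all genes. Its variant TGACCTCA was in the *Trh* window, starting at position -57 from the start site, and in 2.17% of all windows. The AP-1 site TGACTCA, bound by FOS and JUN proteins, was in neither gene's windows and in 5.20% of all windows. TATAAG started at position -26 in *Trh* and was in 7.43% of all windows, and TATAAA started at position -31 in *Ghrh* and was in 13.6%. TGACCTCA and TATAAG were chosen after the *Trh* window was read, so their presence there is not a result.

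The ratio between 2 probes within a lane does not depend on the lane factor, so it was used to compare the genotype differences of the 3 genes with each other. The ratio of *Trh* to *Crh* raw counts was 16.5, 11.7 and 15.4 for the WT mice and 28.1, 13.6 and 21.04 for the KO mice, by replicate number. *Fmr1* KO replicates 1 and 3 were above all WT mice and replicate 2 lay among them. On the log2 scale the ratio was 3.85 ± 0.26 for WT and 4.32 ± 0.53 for KO mice (± SD over 3 mice), a change of 0.47 with a two-sided p of 0.3 from an exact permutation test. The ratio of *Trh* to *Ghrh* was 3.88, 5.44 and 5.49 for WT and 8.23, 3.98 and 7.06 for KO mice. The order of the *Fmr1* KO mice was the same, and the log2 change was 0.33 with p = 0.4 from the exact permutation test. The ratio of *Ghrh* to *Crh* was 4.25, 2.15 and 2.81 for WT and 3.407, 3.41 and 2.98 for KO mice, so that all *Fmr1* KO mice fell within the WT range. Its log2 change was 0.14 with p = 0.7 from the exact permutation test. Adjusted over these 3 pairs the p-values were 0.6, 0.6 and 0.7, where the smallest p that the test can give before adjustment is 0.1. The difference of *Trh* was thus not shown to be larger than that of *Crh* or *Ghrh*.

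**Figure D2:**
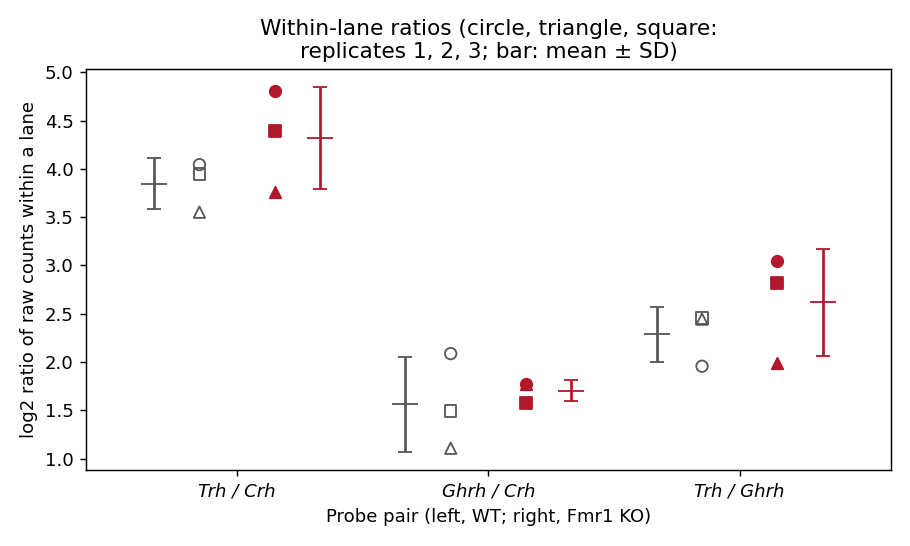
Log2 ratio of raw counts of 2 probes within a lane (vertical axis) for each pair of genes, WT in grey open symbols and *Fmr1* KO in red filled symbols, with bars for the mean ± SD. *Fmr1* KO replicate 2 has the lowest *Trh* to *Crh* and *Trh* to *Ghrh* ratios of its group, 13.6 and 3.98 on the linear scale. For *Ghrh* to *Crh*, the points of *Fmr1* KO replicates 1 and 2 nearly coincide.

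Other peptide genes were set beside the releasing hormone genes, mouse by mouse. *Oxt* and *Avp*, encoding oxytocin and vasopressin of the paraventricular and supraoptic nuclei, had the same lowest KO mouse as *Trh*. For *Oxt* the KO mice had 5202, 3443 and 4454 normalized counts, by replicate number, and the WT mice 1794 to 3335. For *Avp* the KO mice had 5295, 3332 and 8701 and the WT mice 2799 to 3690. Of 12 other peptide genes, 5 were lowest in *Fmr1* KO replicate 2 among the KO mice, namely *Oxt*, *Avp*, *Gnrh1*, *Hcrt* and *Kiss1*. Over all tested probes, 13.6% were lowest and 54.4% were highest in that lane. *Kiss1*, encoding kisspeptin, had a log2 fold change of -0.58 (adjusted p = 0.350 from edgeR), opposite in sign to that of *Trh*.

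*Ghrh* had the same highest mouse in each group as some other arcuate genes. *Agrp* had 181 normalized counts in WT replicate 1 and 180.2 in *Fmr1* KO replicate 2, the highest of each group, against 95.9 to 156.5 in the other mice. *Pomc*, the melanocortin precursor gene, was also highest in WT replicate 1 (569) and *Fmr1* KO replicate 2 (426) within each group, and *Cartpt* and *Tac2* had the same highest mice. Other genes of this nucleus shared the highest WT mouse but not the highest KO mouse. *Npy*, *Pdyn* and *Kiss1* had 598, 512 and 57.2 normalized counts in WT replicate 1, the highest of the WT mice. *Trh*, *Hcrt* and *Adcyap1* were also highest in that WT mouse, while *Crh*, *Gnrh1*, *Oxt* and *Avp* were not. *Npy*, encoding neuropeptide Y, and the dynorphin gene *Pdyn* were highest in *Fmr1* KO replicate 3 of the KO mice, with 646 and 510.1 normalized counts, and *Kiss1* was highest in *Fmr1* KO replicate 1, with 40.6. *Fmr1* KO replicate 2 was also the highest KO lane for 54.4% of all tested probes. The share that was also highest in WT replicate 1 among the WT mice is not given here. *Cartpt*, encoding CART, and *Tac2*, encoding neurokinin B, were lower in *Fmr1* KO mice, with log2 fold changes of -0.63 and -0.54 (adjusted p = 0.00375 and 0.0363 from edgeR). These shared orders were seen after the values were known and were not tested. In bulk tissue, fewer cells of a type and less RNA per cell cannot be told apart.

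**Figure D3:**
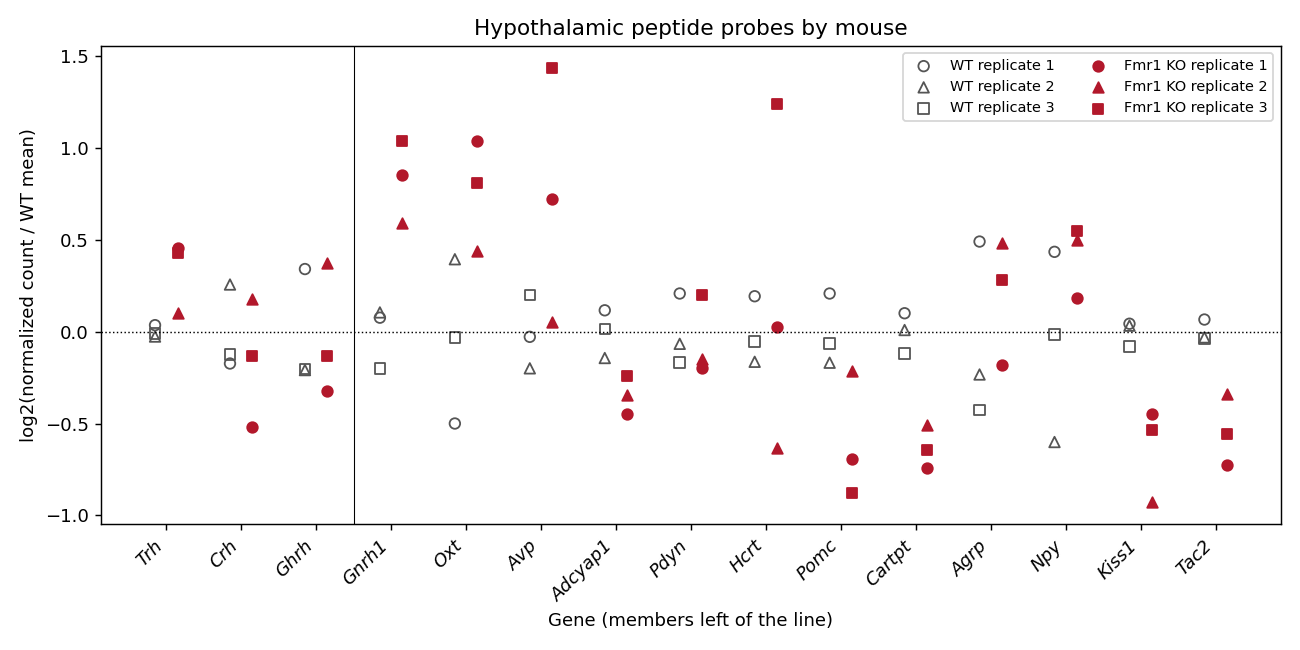
Log2 of the normalized count over the WT mean (vertical axis) for each peptide gene (horizontal axis), with 1 symbol per mouse, WT open and *Fmr1* KO filled. The triangle of *Fmr1* KO replicate 2 is the lowest filled symbol for *Trh*, *Oxt*, *Avp*, *Gnrh1*, *Hcrt* and *Kiss1*. It is the highest for *Crh*, *Ghrh*, *Pomc*, *Cartpt*, *Agrp* and *Tac2*.

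By likeness over the 6 mice, measured as Pearson r of log2 normalized counts after the genotype mean was taken off, the probes nearest to *Trh* were *Kiss1* (0.96), the deacetylase gene *Hdac6* (0.94) and *Lrrc3* (0.93). *Kiss1* was low in counts, at 29.2 to 57.2 normalized counts per mouse, with the lowest in *Fmr1* KO replicate 2. Those nearest to *Crh* were the glucose transporter gene *Slc2a1* (0.98), the NF-kB inhibitor gene *Nfkbia* (0.96) and the replication gene *Mcm5* (0.96). Those nearest to *Ghrh* were the AMPA receptor gene *Gria1* (0.98), *Chst8* (0.97), encoding a sulfotransferase that acts on glycoprotein hormones, and the histone methyltransferase gene *Dot1l* (0.96). For each gene these were the 3 highest of 600 values over 6 mice that share lanes and lane factors, and 5, 19 and 18 probes had a value above 0.9 with *Trh*, *Crh* and *Ghrh*.

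Genes known to act on releasing hormone neurons were described by counts. Of 11 tested genes of cAMP and CREB signaling, a pathway that raises *Crh* and *Trh* transcription, none passed the adjusted threshold, and *Adcyap1* and *Crebbp* were lower at an unadjusted p under 0.05, as were 2.83% of all tested probes. *Adcyap1*, encoding the peptide PACAP, had a log2 fold change of -0.34 (adjusted p = 0.166 from edgeR), and *Crebbp*, encoding a CREB coactivator, of -0.15 (adjusted p = 0.587 from edgeR). The 11 genes had a median log2 fold change of -0.070. Of 4 immediate early genes, *Egr1* and *Fos* were higher at the adjusted threshold, as were 0.499% of all tested probes, and the median of the list was 0.68. The study chose *Egr1*, *Fos* and *Jun* from these same mice. Of 3 genes induced by glucocorticoids, which feed back on *Crh*, none passed. *Fkbp5*, encoding a co-chaperone of the glucocorticoid receptor, had a log2 fold change of -0.27 (adjusted p = 0.726 from edgeR), and *Nfkbia* of 0.50 (adjusted p = 0.552 from edgeR). Of 8 tested receptors of hormones, cytokines and peptides, none passed. The melanocortin receptor gene *Mc4r*, which is expressed by *Trh* neurons, had a log2 fold change of -0.47 and the interleukin receptor gene *Il1r1* of 0.57 (adjusted p = 0.552 and 0.581 from edgeR). None of the 6 measured cytokine genes, among them *Il1b*, *Il6* and *Tnf*, reached the count minimum, and they were not tested.

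Among peptide genes of the paraventricular and supraoptic nuclei, none of 6 passed the adjusted threshold, while *Trh*, *Oxt* and *Avp* were higher and *Adcyap1* was lower at an unadjusted p under 0.05. Over all tested probes 5.66% were higher and 2.83% were lower at this p. The median log2 fold change of this list was 0.15. Among 10 genes of arcuate peptides and feeding inputs, *Ghrh* included, *Cartpt* and *Tac2* were lower at the adjusted threshold, as were 0.333% of all tested probes, 8 did not pass, and the median was -0.25. Both dopamine genes measured, *Th* and *Slc6a3*, had log2 fold changes of -0.16 and -0.086 (adjusted p = 0.865 and 0.981 from edgeR). The genes of fast transmission *Slc32a1* and *Slc17a6* had 0.076 and -0.078 (adjusted p = 0.907 and 0.787 from edgeR). Of 4 general neuron genes none passed, and their median log2 fold change was 0.076.

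Markers of neighboring tissue moved between mice. The pituitary gene *Prl* had raw counts of 123, 6 and 1626 for WT and 4, 6 and 9 for KO mice. In the same order of mice, *Trh* had 867, 830.2 and 839.8 normalized counts for WT and 1161, 908 and 1137 for KO mice. *Tbr1*, a marker of cortical neurons, had 22.5, 23.9 and 29.5 normalized counts for WT and 37.6, 63.5 and 41.7 for KO mice, with an adjusted p of 0.306 from edgeR. *Slc17a7*, the glutamate transporter of cortex and hippocampus, had 86.3, 185 and 204 for WT and 296, 151 and 90.1 for KO mice. In the same order *Crh* had 52.5, 70.8 and 54.4 normalized counts for WT and 41.4, 66.9 and 54.05 for KO mice. *Ttr*, a marker of choroid plexus, was at raw counts of 6 to 24 in all lanes. All 9 tested myelin genes were higher at an unadjusted p under 0.05 from edgeR, as were 5.66% of all tested probes. Their median log2 fold change was 0.52, against 0.0085 over all tested probes. *Opalin* was higher at the adjusted threshold, as were 0.499% of all tested probes. The part of these tissues in the values of *Trh*, *Crh* and *Ghrh* was not tested.

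**Figure D4:**
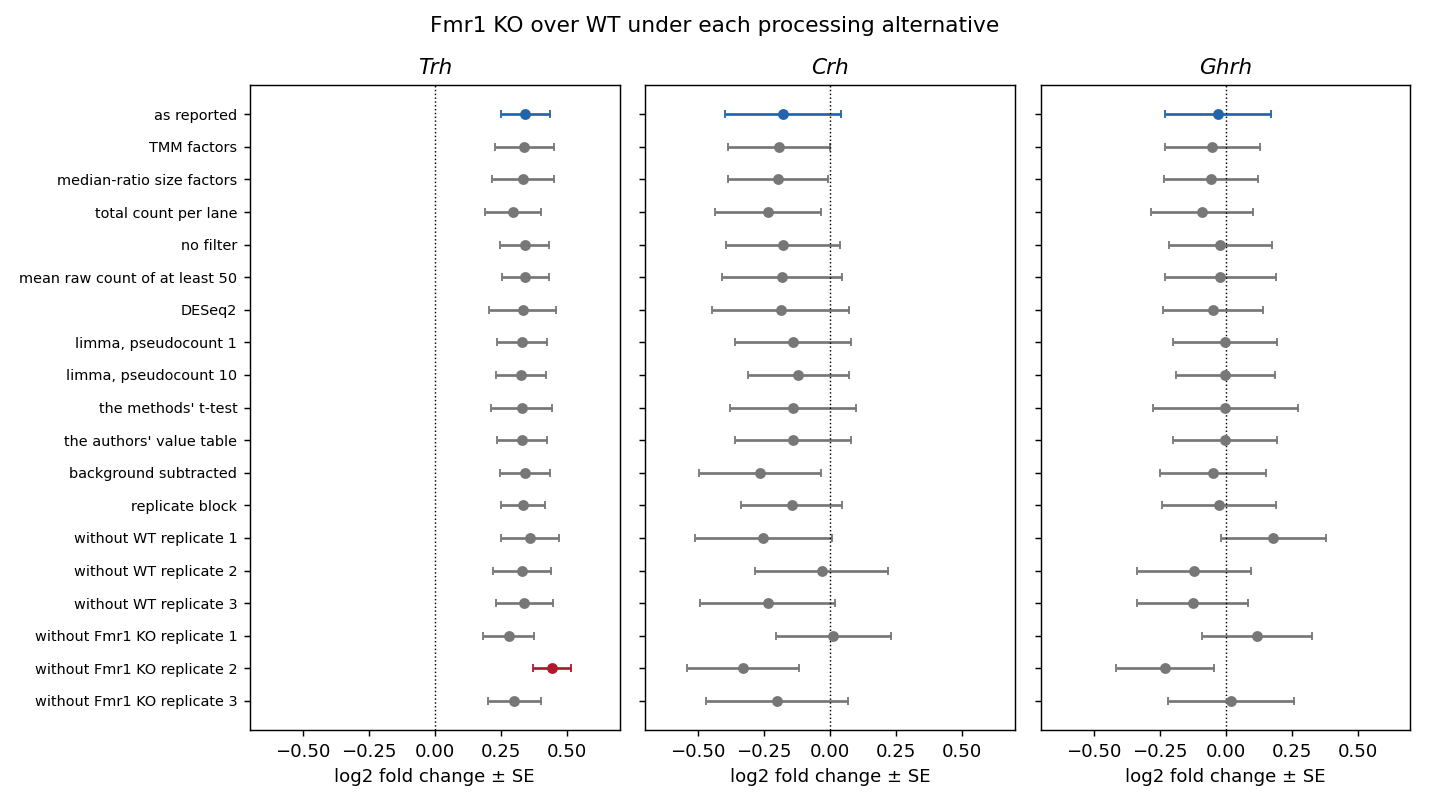
Log2 fold change of *Fmr1* KO over WT with its standard error (horizontal axis) for each gene under each processing alternative (vertical axis), with the reported value in blue and a value with an adjusted p under 0.05 in red. *Trh* stays between 0.28 and 0.44 and is red without *Fmr1* KO replicate 2, while *Crh* lies between -0.33 and 0.012 and *Ghrh* between -0.23 and 0.18.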

How the data were processed

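Hypothalamic RNA of 3 WT and 3 *Fmr1* KO mice was measured, 1 lane per mouse, by the nCounter Mouse Neuroinflammation Panel with custom hypothalamic probes. The deposited raw counts are whole numbers per probe and lane, not normalized. The authors' second table holds a signal for each probe, the raw count times 1 factor per lane, which per the methods rests on 7 housekeeping genes. These factors were recovered as the median ratio of both tables over probes with more than 200 counts. The deposited percent of lanes above a threshold was not used. Of the probes, 772 were named by RefSeq accession and 15 by symbol.

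Probes with a raw count above 20 in at least 3 of 6 lanes were tested with edgeR 4.0.16 in R 4.3.3 (quasi-likelihood), with lane sizes from the authors' factors and Benjamini-Hochberg adjustment over 601 probes. The standard error is the log2 fold change over the square root of F. The fit was tested on simulated data. Replicates are separate mice, and no lanes were alike within sampling noise. Intervals of counts cover counting error only.

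Alternatives were TMM, median-ratio and total-count scaling, no filter or a mean count of at least 50, DESeq2 1.42.0, limma 3.58.1 with a pseudocount of 1 or 10 and on the authors' value table, the methods' t-test, subtraction of the mean of the 79 lowest probes, a replicate block and each mouse left out. The methods' t-test is the test named in the paper's general statistics, run here with equal variances on log2 normalized counts with a pseudocount of 1. The authors analysed their counts with the nSolver software, which was not run here. The members and gene lists were chosen with earlier results of these data known. Genes named are the 3 members, the releasing hormone list, genes of each list that passed or had the 2 smallest p-values, the 3 most alike to each member and the tissue markers. Other peptide genes, and *Il1b*, *Il6* and *Tnf*, are named beside counts or orders and were chosen after their values were seen.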

Additional observations from a re-analysis of the deposited data

How the results depend on the processing

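*Trh* kept its direction under all 18 alternatives run and did not pass the adjusted threshold in 17 of them. Its log2 fold change was 0.30 to 0.34 under the 12 alternatives with all mice and 0.28 to 0.44 with 1 mouse left out, and it passed without *Fmr1* KO replicate 2. *Crh* and *Ghrh* did not pass under any alternative. With 1 mouse left out, the log2 fold change of *Crh* was -0.33 to 0.012 and that of *Ghrh* -0.23 to 0.18. The log2 change of a ratio within a lane was then 0.23 to 0.75 for *Trh* to *Crh*, 0.12 to 0.64 for *Trh* to *Ghrh* and -0.085 to 0.40 for *Ghrh* to *Crh*, of which only the last changed sign. The number of probes called was 5 as reported, 3 when a mean raw count of 50 was required, 14 in DESeq2 and 2 to 11 with 1 mouse left out. With the methods' t-test as run here it was 0, with 45 probes at an unadjusted p under 0.05, *Trh* among them (unadjusted p = 0.0458, adjusted p = 0.641). That is not a count from the authors' own analysis. Deviations of same-numbered mice correlated at -0.059, -0.077 and 0.10. These values showed no pairing by replicate number, but they cannot exclude that the mice were handled in pairs. With the replicate block 3 probes were called, and the adjusted p of *Trh* was 0.149 from edgeR. No scaling with all mice moved the median log2 fold change of all tested probes by more than 0.1. The raw counts of *Crh*, 39 to 71, limit what can be said of it.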
